A study of Mus musculus with 3 samples.

Results

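Cluster 2, the cycling limbal epithelium of the mouse iridocorneal angle and limbus, held 166 of the 26008 cells kept from 3 droplet libraries. Its members are the cells that carry label 2 in the deposited tables of filtered cells, and the transcripts of each were read by barcode from the UMI counts of its library (a UMI, or unique molecular identifier, tags 1 captured transcript). Control 1 gave 56 of these cells, control 2 gave 41 and *Angpt1*ΔNC gave 69. The study used single cells to map the cell types around the aqueous humor outflow tract, and deleted *Angpt1* in the neural crest. Both control libraries came from *Angpt1* flox/flox mice without Cre, and the *Angpt1*ΔNC library from *Angpt1* flox/flox;Wnt1Cre+ mice, in which the *Wnt1* promoter drives recombination in the neural crest lineage. All mice were 6 weeks old and of the strain labelled Mixed, after 2 generations of crossing to ICR that gave albino litters. Each library was a pool of 2 to 3 mice (4 to 6 eyes), with both sexes pooled according to the labels. The floxed allele was thus shared by every group, and the knockout was represented by 1 pool.

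The limbus is the rim between cornea and conjunctiva. Its basal epithelial cells, which make the keratins *Krt14*, *Krt5* and *Krt15* and the transcription factor *Trp63*, renew the corneal epithelium, whose differentiated cells make *Krt12* and *Aldh3a1*. A cell that divides first copies its DNA in S phase with helicase, polymerase and nucleotide synthesis genes, and then turns on a separate program for G2 and mitosis. The markers of cluster 2 stand for that later program and for the basal epithelium. *Ube2c* encodes the ubiquitin-conjugating enzyme that works with the anaphase-promoting complex, *Birc5* encodes survivin of the chromosomal passenger complex, *Top2a* encodes the topoisomerase that untangles sister chromatids, and *Krt15* encodes a basal keratin. In GENCODE M21 on GRCm38, *Ube2c* lies on the plus strand of chromosome 2 from 164769898 to 164778822. *Birc5* lies on the plus strand of chromosome 11 from 117849251 to 117855743. *Top2a* lies on the minus strand of chromosome 11 from 98992943 to 99024189, and *Krt15* on the same strand from 100131758 to 100135928.

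The promoters of the 3 mitotic markers are shown because members of the G2 and M program share short promoter elements. Each window runs from 250 bases before to 50 bases after the RefSeq start of the gene (GRCm38.p6, written 5′ to 3′ on the strand of the gene). Capitals mark TTTGAA or TTCGAA, the letters of the cell cycle genes homology region, and CCAAT, both searched on both strands, so that TTCAAA and ATTGG are the reverse forms. TTCGAA reads the same on both strands and was counted once, and overlapping CCAAT and ATTGG were counted separately.
Ube2c, chr2:164769679-164769978, plus strand: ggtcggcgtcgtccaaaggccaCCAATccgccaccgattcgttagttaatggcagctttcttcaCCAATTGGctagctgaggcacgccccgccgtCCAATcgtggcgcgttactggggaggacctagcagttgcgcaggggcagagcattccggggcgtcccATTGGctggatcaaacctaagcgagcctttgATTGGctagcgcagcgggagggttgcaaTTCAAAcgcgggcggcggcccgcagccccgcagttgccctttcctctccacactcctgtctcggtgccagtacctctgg
Top2a, chr11:99024140-99024439, minus strand: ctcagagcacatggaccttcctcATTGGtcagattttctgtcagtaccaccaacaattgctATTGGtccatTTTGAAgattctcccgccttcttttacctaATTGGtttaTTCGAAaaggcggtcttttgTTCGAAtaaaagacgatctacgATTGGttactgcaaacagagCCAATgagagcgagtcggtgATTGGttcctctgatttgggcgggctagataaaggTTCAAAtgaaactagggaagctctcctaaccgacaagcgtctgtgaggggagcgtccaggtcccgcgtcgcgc
Birc5, chr11:117848987-117849286, plus strand: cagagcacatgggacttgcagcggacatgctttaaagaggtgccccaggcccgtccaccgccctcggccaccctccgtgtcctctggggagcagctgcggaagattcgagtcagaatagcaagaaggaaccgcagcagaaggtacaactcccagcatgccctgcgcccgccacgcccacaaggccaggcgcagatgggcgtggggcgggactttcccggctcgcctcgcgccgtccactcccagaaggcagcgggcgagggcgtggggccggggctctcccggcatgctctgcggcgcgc
The *Ube2c* window held 1 homology region match, 29 bases before the start, and 6 CCAAT matches. The *Top2a* window held 4 and 6. Neither motif was found in the *Birc5* window. Of all 32851 promoter windows of the table, 19.2% held TTTGAA or TTCGAA, 37.4% held CCAAT and 7.52% held both. Of the 56 genes of the G2 and M list, 48 were matched to 53 windows, and 71.7%, 75.5% and 58.5% of these held the homology region, CCAAT and both. Of the 45 genes of the S list, 33 were matched to 37 windows, with 18.9%, 70.3% and 13.5%. The homology region was therefore more frequent in G2 and M promoters than in S promoters, and CCAAT was frequent in both. These are matches of letters and not measured binding.

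The libraries held between 66484181 and 80346829 UMIs in kept cells. Between pairs of libraries, 13 to 25 barcodes of kept cells occurred in both, and 0 of the barcodes shared were in cluster 2 of both libraries. No cell of cluster 2 in either control held a UMI of *Xist*, the noncoding RNA of the inactive X chromosome (0 of 56 and 0 of 41 cells, which allows shares of up to 5.36% and 7.32%), whereas 57 of 69 cells of *Angpt1*ΔNC did. Both controls thus went against their label of pooled sexes. Genotype and sex were therefore not separated by any test here. Cells of the *Angpt1*ΔNC pool with Y-linked transcripts are set beside the controls at the end for some genes, as a description. Cluster 2 cells were deep, with median UMIs per cell of 26906.5 in control 1, 23002 in control 2 and 26680 in *Angpt1*ΔNC. The limbal epithelium labelled cluster 4 had medians of 14480.5, 12359 and 14092 in these libraries. The median share of mitochondrial UMIs in cluster 2 was 2.70%, 3.22% and 3.98%. The targeted gene *Angpt1* had 0, 3 and 0 UMIs in cluster 2, all 3 in cells that were most like no surface epithelium (below), so it offers no check of the genotype labels here.

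Mitotic genes and basal keratins together set cluster 2 apart. Levels are given as the mean over cells of UMIs per 10000 UMIs of the cell, folds are ratios of such levels with 0.1 added to each, and, because the cells were clustered on these genes, all comparisons between clusters are descriptions without a test. *Ube2c* averaged 5.11 in control 1, 4.78 in control 2 and 3.34 in *Angpt1*ΔNC, against 0.0296 over all cells of cluster 4. *Birc5* averaged 2.59, 2.93 and 2.28, against 0.0421, and *Top2a* 2.59, 2.59 and 1.88, against 0.0144. Each of the 3 libraries had these mitotic genes well above the level of the limbal epithelium, and *Angpt1*ΔNC had the lowest level of each. At least 1 UMI of *Birc5* was present in 98.2% of cluster 2 cells, of *Top2a* in 95.2% and of *Ube2c* in 86.1%, compared with 3.07%, 1.79% and 1.47% of cluster 4 cells, whose median depth was 13605 UMIs against 25877.5. *Krt15* averaged 42.8, 45.0 and 50.9, between cluster 4 (25.4, 21.8 and 22.9) and the conjunctival epithelium labelled cluster 3 (81.1, 108 and 122). Most of the cells thus carried the markers that go with the name used here. The deposited label is only a number and the name came with these markers, so the match is no independent check. The study itself identified cluster 2 as limbal stem cells. Cells that depart from the name are given below.

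**Figure D1:**
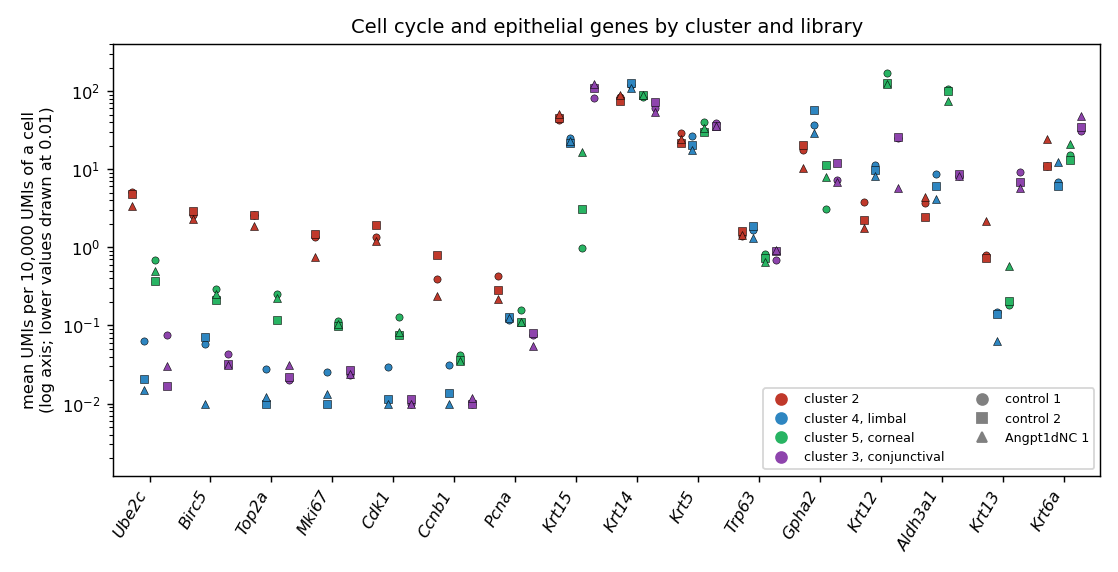
Mean UMIs per 10000 UMIs of a cell (log axis) for cell cycle and epithelial genes, with color for the cluster and symbol shape for the library, and values under 0.01 drawn at 0.01. The cluster 2 points of *Ube2c*, *Birc5*, *Top2a*, *Mki67* and *Cdk1* lie above those of clusters 3, 4 and 5 in each library, while *Krt12* and *Aldh3a1* lie near or below the limbal points and far below the corneal ones.

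The 25 genes with the largest fold over all other kept cells mixed both kinds. *Ube2c* led with 28.9-fold, followed by the linker histone gene *Hist1h1b* (23.4), the microtubule regulator *Stmn1* (22.9), *Birc5* (19.2) and *Wfdc18* (18.7). *Stmn1* averaged 14.2, 19.7 and 14.6 and had a UMI in 100% of the cells. *Pclaf*, which encodes a PCNA partner, was 16.1-fold and *Cdca8*, a chromosomal passenger gene, 14.4-fold above the other cells, and the kinetochore gene *Spc24* 14.3-fold. *Cdk1*, the kinase that drives entry into mitosis, was 12.1-fold and *Mki67*, the proliferation antigen, 9.13-fold higher. Of epithelial genes, *Krt15* (13.5), *Lgals7* (12.6), *Sbsn* (11.7), *Krt17* (11.6), *Krt8* (11.6), *Gpx2* (9.63), *Adh7* (9.50) and *Krt7* (8.83) were among the 25. *Lgals7*, *Hist1h1b*, *Hist1h1e* and *Gpx2* were much lower in *Angpt1*ΔNC than in both controls, so their place in this order came mostly from the controls. With 1 instead of 0.1 added to each level, 9 of the 25 remained among the leading genes.

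Of the 45 genes of the S list, 30 were found in at least 25% of the cells of cluster 2 or of cluster 4. All 30 had a higher level in cluster 2 than in cluster 4 in all 3 libraries, with a median of 2.81-fold. Over all 5934 genes found that often, 45.7% were higher and 18.7% lower in all 3 libraries, and the median fold was 1.12. A gene could pass this filter through cluster 2 alone, whose cells were deeper. The counts here and for the lists below thus lean towards genes high in cluster 2 and are no test. The thymidylate synthase gene *Tyms* averaged 1.48, 1.62 and 1.35 (cluster 4: 0.201, 0.0966 and 0.0716), and the ribonucleotide reductase gene *Rrm2* 0.865, 1.74 and 0.632. The replication clamp gene *Pcna* averaged 0.425, 0.283 and 0.215 (cluster 4: 0.118, 0.127 and 0.124), with a UMI in 49.4% of the cells. S phase transcripts were thus present, at lower fold than those of mitosis.

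The G2 and M genes lay further above cluster 4, with 45 of 45 genes found often enough higher than in cluster 4 in all 3 libraries (45 of the 56 listed) and a median of 4.65-fold. The chromosomal passenger and kinetochore list gave 15 of 15 and a median of 4.48-fold. *Cenpa*, the histone variant of the centromere, averaged 1.75, 2.05 and 1.38, and *Cenpf* 1.17, 1.41 and 0.483. Among regulators of the anaphase-promoting complex, 12 of 13 were higher in all 3 libraries. *Cdc20*, its activator, averaged 1.37, 2.00 and 0.827, and *Pttg1*, which encodes securin, 1.96, 2.92 and 0.857. *Ube2s*, the chain-elongating partner of *Ube2c*, was already present in 92.7% of cluster 4 cells and was 3.45-fold higher in cluster 2. Of cyclins, kinases and their inhibitors, 9 of 14 were higher and 2 lower. *Ccnb1* and *Ccnb2*, the mitotic cyclins, were 4.65-fold and 9.14-fold higher, while *Ccnd1* and *Ccnd2*, the cyclins of G1, were at 0.67 and 0.652 of the cluster 4 level. The inhibitor gene *Cdkn1a* averaged 15.7, 11.6 and 12.5, close to cluster 4 (14.1, 11.6 and 10.7). Of the transcription factors of the cycle, *Foxm1* was found in 32.5% of cluster 2 and 0.832% of cluster 4 cells.

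Cluster 2 shared *Krt14*, *Krt5* and *Trp63* with the limbal epithelium and had lower levels of several limbal and anchoring genes. *Krt14* averaged 82.9, 74.2 and 88.2 (cluster 4: 120, 126 and 110), and *Krt5* 28.6, 21.3 and 24.2 (26.4, 20.3 and 17.5). *Trp63* averaged 1.40, 1.63 and 1.44 (1.68, 1.90 and 1.32). *Gpha2*, a marker of the quiescent outer limbus, averaged 17.5, 20.5 and 10.5, below the cluster 4 levels of 36.4, 57.6 and 28.9 in each library. The interferon-induced membrane gene *Ifitm3* and the tetraspanin gene *Cd63*, further outer limbus genes, were at 0.615 and 0.609 of cluster 4. Of the 4 genes of the outer limbus list, 3 were lower and 1, *Krt15*, higher in all 3 libraries, and of 4 inner limbus genes 3 were lower. Genes of hemidesmosomes and basement membrane, which anchor basal cells, were lower for 9 of 11, among them *Col17a1* (0.605 of cluster 4) and *Lamb3* (0.527). The metallothionein gene *Mt1* averaged 19.5, 17.9 and 26.7 against 35.1, 38.3 and 50.3. These lower levels were counted in cells of higher depth than those of cluster 4.

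The lineage genes of the neighboring epithelia showed where the cells do not belong. *Krt12*, the corneal keratin, averaged 3.78, 2.25 and 1.76, against 168, 128 and 122 in the corneal epithelium labelled cluster 5 and 11.4, 9.89 and 8.18 in cluster 4. *Aldh3a1*, the crystallin enzyme of the cornea, averaged 3.68, 2.48 and 4.46, against 105, 99.8 and 74.2 in cluster 5. Conjunctival genes were instead above the limbal level for 5 of 6, with a median of 2.44-fold. *Krt13* averaged 0.805, 0.735 and 2.15, against 0.148, 0.139 and 0.0629 in cluster 4 and 9.24, 6.85 and 5.69 in cluster 3. *Sprr1a*, a cornified envelope gene, averaged 3.28, 1.95 and 5.47, against 0.825, 0.431 and 0.758 in cluster 4. The gene with the largest fold in the other direction was the antimicrobial peptide gene *Defb1*, at 0.294, 0.620 and 0.603 in cluster 2 and 2.68, 3.02 and 2.48 in cluster 4. *Csf3*, *Krt12*, *Serpina3n* and *Rras2* followed.

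To ask which cells the members resemble apart from division, each was assigned to the other label whose summed profile gave its counts the highest multinomial likelihood, after the cell cycle lists (153 genes) were left out. Cluster 4 was nearest for 131 of 166 cells (78.9%, exact 95% interval 71.9 to 84.9), with 45 of 56 in control 1, 31 of 41 in control 2 and 55 of 69 in *Angpt1*ΔNC. Cluster 3 was nearest for 23 cells (6, 4 and 13), and cluster 5 for 2 cells, both of control 1. The remaining 10 cells (3, 6 and 1) were nearest to labels outside the surface epithelium. Leaving out 200 leading genes, or using Spearman correlation over 2000 variable genes, gave 134 and 122 cells nearest to cluster 4 and left the count for clusters 3 to 5 at 156.

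**Figure D2:**
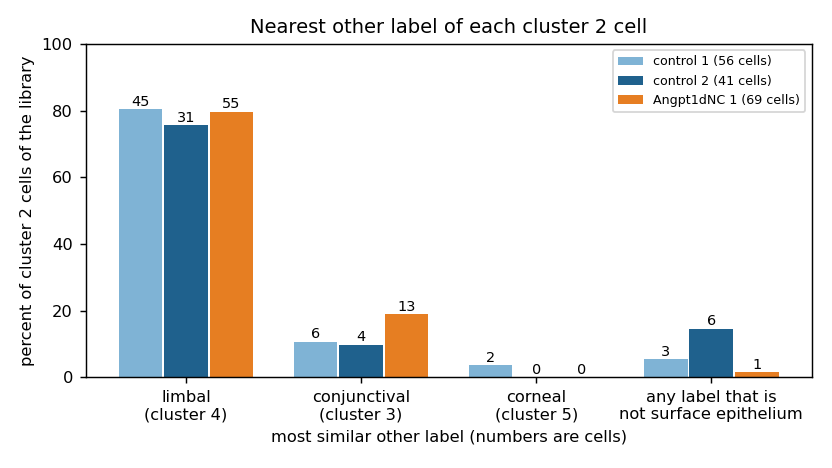
Percent of the cluster 2 cells of each library (bars, with cell counts above them) by the most similar other label once cell cycle genes are left out. The limbal label holds 45, 31 and 55 cells, and the group outside the surface epithelium is largest in control 2, with 6 of its 41 cells.

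The cells nearest to cluster 3 and to cluster 4 differed in keratins that the assignment itself used. *Krt15* averaged 95.7 in the 23 conjunctival-like cells and 42.1 in the 131 limbal-like cells, and *Krt13* averaged 6.61 and 0.525. *Gpha2* went the other way, with 5.62 and 18.2. Of the mitotic genes, which the assignment left out, *Top2a* (1.93 and 2.09), *Birc5* (2.72 and 2.38) and *Mki67* (0.945 and 0.990) were near each other. *Ube2c* was lower in the conjunctival-like cells, at 2.84 against 4.48. The 2 corneal-like cells averaged 75.6 for *Krt12*.

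The 10 cells outside the surface epithelium carried mitotic transcripts without epithelial ones. *Krt15* and *Trp63* had 0 UMIs in all 10, *Krt14* at most 2 in any of them, while *Top2a* averaged 5.77 and *Birc5* 4.17. A cell of control 2 nearest to the melanocyte label held 200 UMIs of the melanosome gene *Pmel* and 116 of *Dct*. A cell of control 2 nearest to the Schlemm's canal label held 41 UMIs of the endothelial cadherin gene *Cdh5*, and a cell of control 1 nearest to the corneal endothelium label held 210 of the matrix gene *Dcn*. The other cells were nearest to stromal, smooth muscle, blood endothelial, corneal endothelium and trabecular meshwork labels. The number of cells with at least 1 UMI of both *Krt14* and *Krt5* was 53 of 56, 35 of 41 and 68 of 69, the same numbers per library as the cells nearest to clusters 3 to 5. These 10 cells go against the name of the cluster as an epithelium. By the same assignment, the 23 cells nearest to cluster 3 and the 2 nearest to cluster 5 go against the limbal part of the name. Genotype results are given with and without the 10 cells, and for the cells nearest to cluster 4 alone.

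Most members carried more G2 and M transcripts than almost any limbal cell. Each cell was thinned to 4000 UMIs (1 shallower cell was left out) and called above the cut when its list sum exceeded the 99th percentile of cluster 4 cells, which was 5 UMIs for the S list and 13.72 for the G2 and M list. The G2 and M sum was above the cut in 53 of 55 cells of control 1 (96.4%, exact 95% interval 87.5 to 99.6), 39 of 41 of control 2 (95.1%, 83.5 to 99.4) and 60 of 69 of *Angpt1*ΔNC (87.0%, 76.7 to 93.9). The S sum was above the cut in 23, 16 and 18 cells (41.8%, 39.0% and 26.1%). Of all 165 cells, 100 were above the G2 and M cut alone, 5 above the S cut alone, 52 above both and 8 above neither. All 8 cells above neither were in *Angpt1*ΔNC. The median G2 and M sum was 27, 31 and 21 UMIs, with ranges of 4 to 50, 9 to 70 and 5 to 46 that overlapped widely. In cluster 4, 1.05% of cells were above the G2 and M cut, in cluster 3 1.06% and in cluster 5 8.05%. The cuts divide a range and not types, as 39 cells lay near the S cut and 9 near the G2 and M cut, and free transcripts in droplets could add to the sums. The difference in these shares was not tested over libraries.

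**Figure D3:**
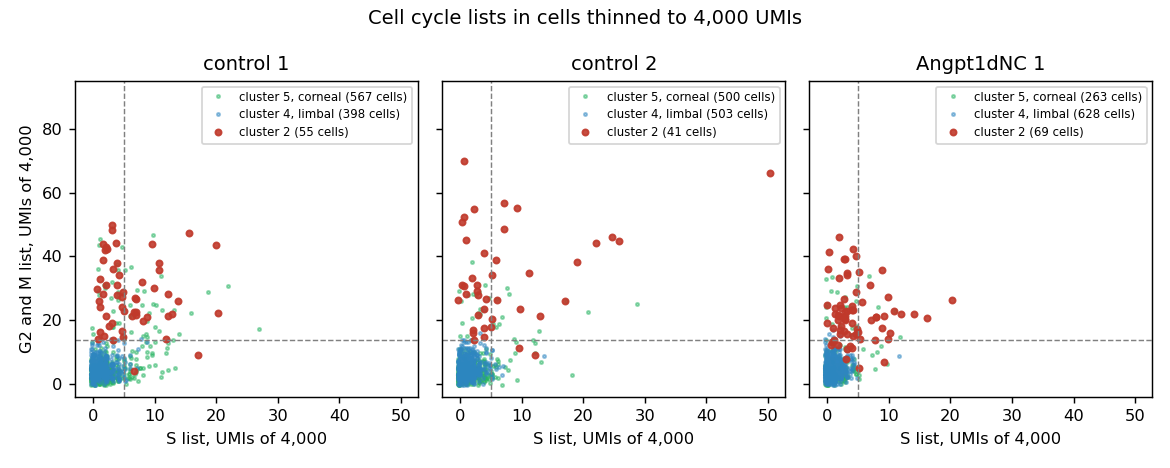
UMIs of the S list (x axis) and of the G2 and M list (y axis) in each cell thinned to 4000 UMIs, by library, with dashed lines at the 99th percentile of cluster 4 cells and points shifted slightly at random to separate them. Cluster 2 (red) fills the area above the horizontal line, most of it left of the vertical line, and 8 of its cells lie under both lines, all in *Angpt1*ΔNC.

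Cluster 2 did not hold all dividing cells of the dissection. At least 1 UMI of both *Top2a* and *Birc5* was found in 358 kept cells, of which 155 were in cluster 2 (43.3%, exact 95% interval 38.1 to 48.6). Of cluster 2, 52 of 56, 39 of 41 and 64 of 69 cells were positive for both. Cluster 5 followed with 130 of 1350 cells (66, 34 and 30 by library). Cluster 24 of the monocytes had 41 of 1575, cluster 3 had 13 of 390 and cluster 4 had 4 of 1562. Cells positive for both genes were thus rare in cluster 4, while the corneal label kept its own. The cells were clustered on such genes, so the gap between clusters 2 and 4 is a description. By library, cluster 2 took 36.9%, 39.4% and 54.2% of all positive cells. After thinning to 4000 UMIs the share over all libraries was 51.9%, and for cells positive for *Mki67* and *Cdk1* it was 44.4%. Thinned, 67 of 165 cells of cluster 2 and 37 of 1330 of cluster 5 were positive for *Top2a* and *Birc5*. In cluster 3 it was 0 of 376 and in cluster 4 1 of 1529. The 13 cells of cluster 3 positive before thinning were deep, with a median of 60143 UMIs, so their count depended on depth.

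**Figure D4:**
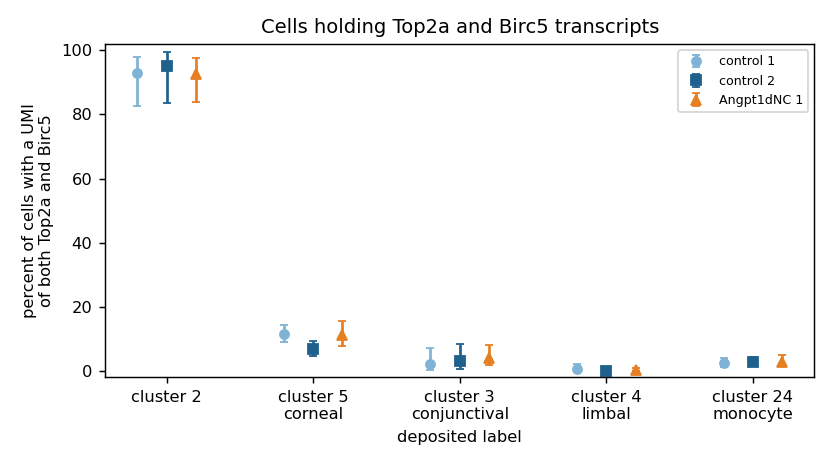
Percent of cells with at least 1 UMI of both *Top2a* and *Birc5* (y axis) by deposited label and library, with exact 95% intervals that cover counting error only. The cluster 2 points lie between 92.8% and 95.1%, those of cluster 5 between 6.73% and 11.5%, and those of cluster 4 at or under 0.725%.

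The cells of the corneal label positive for *Top2a* and *Birc5* carried mitotic transcripts on another epithelial background. The 130 positive cells of cluster 5 averaged 4.45 for *Ube2c*, 2.08 for *Birc5* and 1.79 for *Top2a*, beside 4.50, 2.58 and 2.44 in the 155 of cluster 2. The *Krt12* level of the cluster 5 cells was 122 against 2.46, *Aldh3a1* 91.2 against 3.56, and *Lypd2*, a Ly6 family gene, 33.1 against 0.0935. *Krt15* was 5.24 against 46.0. The G2 and M list summed to 52.0 and 67.8 per 10000 UMIs.

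Cluster 2 made up 0.617% of kept cells in control 1 (exact 95% interval 0.466 to 0.801), 0.404% in control 2 (0.290 to 0.547) and 1.02% in *Angpt1*ΔNC (0.794 to 1.29). The interval of control 1 overlapped that of *Angpt1*ΔNC at its edge, and the controls themselves differed 1.53-fold. *Angpt1*ΔNC was 2.00-fold above the control mean. Other labels differed too, since cluster 4 was 1.98-fold and cluster 3 2.75-fold above the control mean, while cluster 5 was at 0.705. Among cells of clusters 2 to 5 alone, cluster 2 was 4.90%, 3.56% and 5.89%, a ratio of 1.39 to the control mean with the controls 1.38-fold apart. Counted without labels, cells with *Top2a*, *Birc5* and *Krt14* were 1.36%, 0.787% and 1.58% of kept cells, 1.47-fold above the control mean with the controls 1.72-fold apart. The shares were not tested over libraries, the intervals cover counting error only, and the part of dissection in these shares was not tested.

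Between genotypes, the UMIs of cluster 2 were summed per library and tested with edgeR's quasi-likelihood test, in which the lone *Angpt1*ΔNC sum is assumed to vary like the controls (1 residual degree of freedom, 2 control pools against 1). Of 8356 genes tested, 110 were higher (1.32%) and 72 lower (0.862%) in *Angpt1*ΔNC at an adjusted p under 0.05, together 2.18%, and 1201 were under an unadjusted p of 0.05. Without the 10 cells outside the surface epithelium 205 were higher (2.54%) and 143 lower (1.77%) of 8062 (together 4.32%), and 176 of the 182 calls were shared. In the cells nearest to cluster 4 alone 297 were higher (3.88%) and 182 lower (2.38%) of 7646 (together 6.26%). DESeq2 called 45 higher (2.09%) and 24 lower (1.12%) of 2152 (together 3.21%). The genotype effect differed from that in cluster 4 for 89 of 10798 genes (0.824%), 45 higher (0.417%) and 44 lower (0.407%), and without those 10 cells for 60 higher (0.572%) and 29 lower (0.277%) of 10487 (together 0.849%). The log2 differences use TMM scaling. Scaling by total UMIs would lower them by a median of 0.18, from a median over genes of -0.03 to -0.22. Changes below are therefore relative to a set of genes that itself lies slightly lower per UMI.

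*Lgals7*, which encodes the epithelial galectin-7, averaged 17.2 in control 1, 13.7 in control 2 and 0.828 in *Angpt1*ΔNC, far below both controls. Its log2 difference was -3.95 ± 0.24 (SE, adjusted p = 7.09e-07). *Apoc1* averaged 2.35, 2.28 and 0.394 (log2 difference -2.31, adjusted p = 0.000333), and the cytoskeletal regulator gene *Marcksl1* 1.68, 1.83 and 0.291 (-2.30, adjusted p = 0.000461). *Spon2*, a secreted matrix gene, averaged 0.595, 0.342 and 0.0233. In cluster 4 these genes were lower in *Angpt1*ΔNC as well, with *Lgals7* at 11.1, 13.5 and 1.70 and *Apoc1* at 2.37, 2.74 and 0.818. For these 4 genes the gap to the controls was larger than the gap between the controls in both clusters.

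A pair of linker histone genes, whose transcripts accumulate in S phase, were lower in cluster 2 and in cluster 4. *Hist1h1b* averaged 4.58, 5.30 and 0.519 (log2 difference -3.10 ± 0.23, adjusted p = 5.67e-06), and *Hist1h1e* 3.10, 3.30 and 0.502 (-2.52 ± 0.23, adjusted p = 6.15e-05). In cluster 4 the log2 differences were -4.23 for *Hist1h1b* and -2.76 for *Hist1h1e*. *Hist1h1b* was near the floor there, at 0.116, 0.0667 and 0.00193 with a UMI in 2.50% of cells, so the size of its fold is uncertain. The third histone gene among the leading genes, *Hist1h2ap*, averaged 0.490, 3.00 and 0.579, so that the controls did not hold together.

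*Krt6a*, *Krt6b*, *Krt16*, *Lcn2*, *Csf3* and *Serpinb3a* were higher. *Krt6a*, a keratin of stressed or wounded epithelium, averaged 10.8 in both controls and 24.4 in *Angpt1*ΔNC (log2 difference 1.34 ± 0.16, adjusted p = 0.000461). *Krt6b* averaged 0.534, 0.296 and 1.72, and *Krt16* 14.0, 12.0 and 27.5 (1.17, adjusted p = 0.00119). *Lcn2*, the siderophore-binding lipocalin, averaged 0.538, 0.539 and 4.57 (3.16 ± 0.21, adjusted p = 1.55e-06). *Csf3*, the granulocyte colony-stimulating factor gene, averaged 0.449, 0.652 and 2.29 (2.51 ± 0.28), and the serine protease inhibitor gene *Serpinb3a* 0.0841, 0.181 and 1.00. In the cells nearest to cluster 4 alone *Serpinb3a* averaged 0.0114, 0.185 and 0.329. Its log2 difference was 1.69 there, beside 2.93 in all of cluster 2. The genes named first in this paragraph, apart from the list member *Krt16*, were chosen as calls with *Angpt1*ΔNC outside the controls. That position is therefore no added result. In cluster 4 *Krt6a* went the same way, at 6.77, 6.11 and 12.5. Of the suprabasal differentiation list, 3 of 10 tested genes were higher (*Krt6a*, *Krt16* and *Sprr1a*) and 0 lower, beside 1.32% and 0.862% of all genes, with a median log2 difference of 0.94 beside -0.03 over all genes tested, and the level was above both controls for 8 of 10, beside 22.3% of all genes. Of the conjunctival list, 3 of 7 were higher (*Krt4*, *Krt13* and *Krt18*) and 0 lower, beside the same shares, with a median of 0.67. *Krt13* was 1.56 higher on the log2 scale (adjusted p = 0.00248), but 0.06 (adjusted p = 0.97) in the cells nearest to cluster 4 alone.

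**Figure D5:**
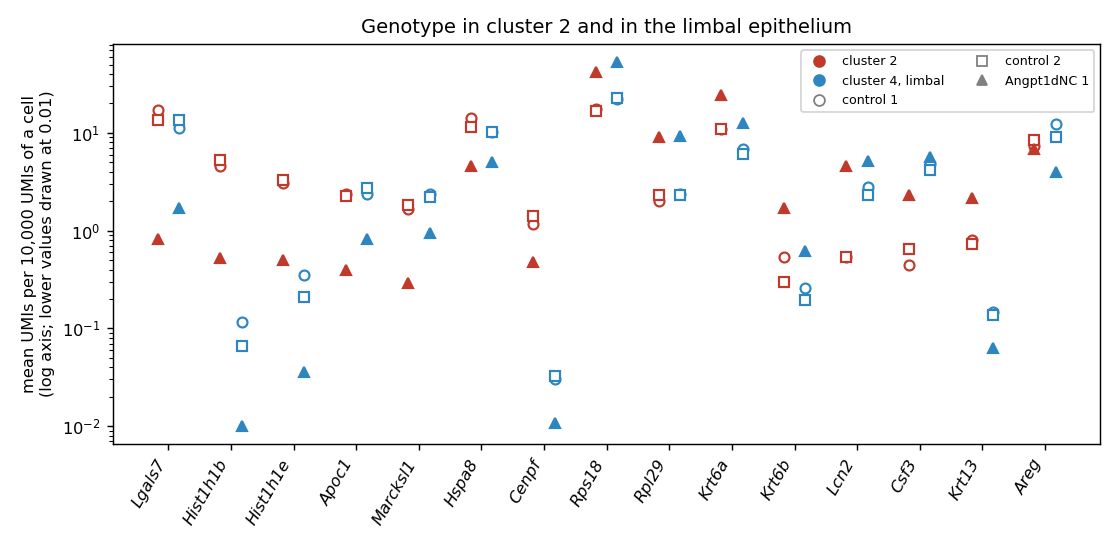
Mean UMIs per 10000 UMIs of a cell (log axis) in cluster 2 (red) and the limbal epithelium, cluster 4 (blue), for genes that differed by genotype or by genotype and cluster, with 1 symbol per library and values under 0.01 drawn at 0.01. *Angpt1*ΔNC (triangles) lies below both controls for *Lgals7*, the linker histones and *Hspa8* and above them for *Rps18*, *Rpl29*, *Krt6a* and *Krt6b* in both clusters, while for *Krt13* it lies above both controls in cluster 2 and below both in cluster 4.

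Several of the strongest differences were in genes with near-identical copies or little known function. *Gm10260* averaged 9.33, 10.1 and 0.0428 and *Gm11361* 2.14, 1.75 and 0.103. GENCODE tags both as retrogenes, so reads may be split between copies and these values are uncertain. The ribosomal protein genes *Rps18* (17.4, 16.8 and 41.9) and *Rpl29* (2.02, 2.33 and 9.10) were higher, and copies of ribosomal genes make them uncertain too. The gene *1600014C10Rik* averaged 4.04, 3.47 and 0.0307, and *Gm10320* 0.387, 0.479 and 0.0192. *Cyp2f2*, a cytochrome P450 gene, averaged 0.0953, 0.0356 and 0.766, and the noncoding RNA *Gm26917* 0.204, 0.391 and 1.45. *Tfpi2* had 36, 34 and 0 UMIs and passed the filter on low counts only with the cells outside the surface epithelium. In cluster 4, *Gm10260*, *1600014C10Rik*, *Gm11361*, *Gm10320*, *Rps18* and *Rpl29* differed in the same direction, with *Gm10260* at 11.3, 13.9 and 0.0218.

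Few genes of the mitotic program passed the threshold between genotypes. Of the 53 G2 and M genes tested (of 56), 0 were higher and 1 lower, *Cenpf* (log2 difference -1.19 ± 0.28, adjusted p = 0.0489), beside 1.32% and 0.862% of all genes. The median was -0.36. The level lay below both controls for 42 of 53, beside 51.0% of all genes tested. Without the cells outside the surface epithelium 5 were lower (*Cenpf*, *Anln*, *Hmmr*, *Cdc20* and *Ckap2l*), beside 1.77% of all genes, and the level lay below both controls for 36 of 53, beside 47.0%, and above both for 3, beside 25.9%. With edgeR 17 of the 53 were lower at an unadjusted p under 0.05, beside 541 of 8356 genes (6.47%), and DESeq2 called 0 of the 26 it tested. *Mki67* averaged 1.36, 1.48 and 0.747 (log2 difference -0.62 ± 0.25, adjusted p = 0.26) and *Ube2c* differed by -0.47 ± 0.18 (adjusted p = 0.25). *Birc5* and *Top2a* differed by -0.13 ± 0.20 and -0.24 ± 0.20 (adjusted p = 0.85 and 0.68). *Pttg1* was lower (log2 difference -1.34 ± 0.26, adjusted p = 0.0151). Of 41 S genes tested, 0 were higher and 1 lower, *Rpa2* (-1.58, adjusted p = 0.0335), with a median of -0.18. *Krt15* differed by 0.41 ± 0.15 (adjusted p = 0.21) and *Gpha2* by -0.65 ± 0.17 (adjusted p = 0.0636). At this depth, simulated 4-fold changes were recovered for 81% of the changed genes and 2-fold changes for 15%. The simulation changed only genes with counts above a floor and used a fixed spread between libraries that was not estimated from these data. Recovery of genes with lower counts was not simulated, and 2-fold changes were mostly missed even above the floor. Small differences in cell cycle genes may therefore have gone undetected.

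Among cells of the *Angpt1*ΔNC pool, 55 of cluster 2 held *Xist* and no Y-linked UMI and 12 held Y-linked UMIs alone. The first group was 82.1% of the 67 cells so typed (exact 95% interval 70.8 to 90.4), against 61.4% in cluster 4, 51.8% in cluster 3 and 66.0% of all kept cells typed. Both groups come from the same pool of 2 to 3 mice, so the sexes are also different animals and their values are set side by side without a test. *Lgals7* averaged 0.0443 in the *Xist* cells and 4.16 in the Y-linked cells, *Lcn2* 5.46 and 1.01, *Csf3* 2.70 and 0, and *Pttg1* 1.04 and 0.177. *Lgals7*, *Lcn2* and *Csf3* in the cells of the animal or animals with Y-linked transcripts therefore lay nearer to the controls. *Hist1h1b* averaged 0.536 and 0.527, *Rpl29* 9.11 and 9.18, *Rps18* 41.6 and 43.5, and *Krt6b* 1.76 and 1.83. For these 4 genes both groups lay on the same side of the controls. The Y-linked group was 12 cells of 1 pool, so these values are a description, and the part of sex or animal was not tested for any gene. The median UMIs per cell were 26629 and 27519.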

How the data were processed

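Droplet single-cell RNA-seq was made from 3 pools of dissected limbus and iridocorneal angle. Per the labels, Cell Ranger 2.1.1, Seurat 3.1.3 and mm10 were used by the authors, while the matrix headers name Cell Ranger 3.0.2. The deposited matrices hold raw UMI counts per gene and barcode (31053 genes), and the deposited tables of kept cells hold the cluster label. The study's methods give the removal of low quality cells and of doublets (scDblFinder) before clustering, which left out sex-linked genes and *Angpt1*. The integrated values in those tables were not used. Cell members and gene lists were chosen with earlier results of these data known.

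Counts were joined by barcode within each library. UMI sums per library were tested with edgeR 4.0.16 (filterByExpr, TMM, glmQLFTest, Benjamini-Hochberg adjustment), for genotype in cluster 2 and for the difference of that effect from cluster 4, with DESeq2 1.42.0 as an alternative. Samples are pools of mice. The p-values rest on a spread between 2 control pools that edgeR estimates with information shared over genes. They do not measure the spread of a gene's own controls, and *Dct* was called for the interaction with control levels of 0.122 and 2.21. The interaction fit also left 1 residual degree of freedom, so its very small p-values rest on this shared spread. The scripts were tested on simulated data with a fixed spread between libraries. Simulated 4-fold and 2-fold interactions were recovered for 30% and 3% of the changed genes, which left out genes with low counts. Named genes were the 25 leading over other cells and 15 over cluster 4, members of fixed lists, the 20 genotype calls and 10 interaction calls with the smallest adjusted p outside the control range, *Angpt1* and sex-linked genes. Promoters are from RefSeq. Alternatives were scaling, filter, equal cell numbers, thinning, other cuts, cluster 5 in place of cluster 4 and each control left out.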

Additional observations from a re-analysis of the deposited data

Results flagged for a closer look

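The genotype difference of cluster 2 was set against that of the limbal epithelium, cluster 4, of the same libraries in 1 edgeR fit with library as a term, and the difference itself passed an adjusted p of 0.05 for 89 of 10798 genes (0.824%), 45 higher (0.417%) and 44 lower (0.407%) in cluster 2. Leaving out the cells outside the surface epithelium gave 60 and 29, with 64 genes shared. Values below are the log2 difference of cluster 2 minus that of cluster 4.

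*Krt13* gave 2.65 (adjusted p = 5.69e-15), with *Angpt1*ΔNC above both controls in cluster 2 (0.805, 0.735 and 2.15) and below both in cluster 4 (0.148, 0.139 and 0.0629). In cells nearest to cluster 4 alone the adjusted p was 0.24, and 13 of the 23 cells nearest to cluster 3 were in *Angpt1*ΔNC. In cluster 2 cells of that pool *Krt13* averaged 2.57 with *Xist* alone and 0.592 with Y-linked transcripts alone, and 82.1% of typed cells had *Xist* alone in cluster 2 against 61.4% in cluster 4. *Lcn2* (5.46 and 1.01) and *Csf3* (2.70 and 0) were also higher with *Xist* alone. The part of this unequal mix of animals in the differences from cluster 4 was not tested. *Lcn2* gave 1.87 (adjusted p = 4.85e-12) and *Csf3* 2.01 (adjusted p = 3.39e-13). Both started lower in control cells of cluster 2 than of cluster 4 (*Lcn2* 0.538 and 0.539 against 2.81 and 2.34, *Csf3* 0.449 and 0.652 against 4.86 and 4.15) and were higher in *Angpt1*ΔNC in both clusters. With cluster 5 in place of cluster 4, 17 of the 89 calls were shared. Of the 10 genes named here, *Areg*, *Ptgs2* and *Adora2b* passed there and 7 did not, among them *Krt13* (0.07, adjusted p = 0.99), *Lcn2* (0.29, adjusted p = 0.96), *Csf3* (0.50, adjusted p = 0.92) and *S100a9* (0.69, adjusted p = 0.63).

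For another set, the level in cluster 4 was below both controls in *Angpt1*ΔNC while in cluster 2 no call was made (adjusted p from 0.235 to 0.922). *Areg*, an EGF receptor ligand gene, gave 1.72 (adjusted p = 3.05e-10), with 7.42, 8.40 and 6.84 in cluster 2 and 12.2, 8.98 and 3.93 in cluster 4. *Dusp1*, an immediate early phosphatase gene, gave 1.47 (adjusted p = 1.23e-08), *Ptgs2*, the inducible cyclooxygenase gene, 1.79 (adjusted p = 1.16e-08), *S100a9*, a calprotectin gene, 2.17 (adjusted p = 8.29e-12) and the adenosine receptor gene *Adora2b* 2.92 (adjusted p = 1.04e-08). *S100a9* averaged 0.296, 0.394 and 0.515 in cluster 2 and 2.37, 1.60 and 0.538 in cluster 4. For *Areg*, *Dusp1* and *Ptgs2* the mean level of *Angpt1*ΔNC in cluster 2 was below both controls. The log2 differences of the UMI sums were instead above 0, at 0.34, 0.35 and 0.10. In cells nearest to cluster 4 alone the log2 difference of *Areg* was -0.31, and its difference from cluster 4 was 1.14. In cluster 2 cells of *Angpt1*ΔNC all 5 genes of this set were higher with *Xist* alone than with Y-linked transcripts alone. The levels were 7.69 and 2.98 for *Areg*, 0.965 and 0.184 for *Ptgs2*, and 0.209 and 0.0699 for *Adora2b*. For *S100a9* they were 0.544 and 0.284, and for *Dusp1* 2.13 and 1.68. The part of the unequal mix of animals between the clusters was not tested for these genes either.

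The 2 remaining genes rest on control 2. *Dct*, a melanin synthesis gene, gave -2.73 (adjusted p = 4.37e-09), with 0.122, 2.21 and 0.111 in cluster 2. A control 2 cell nearest to the melanocyte label held 116 of the 119 *Dct* UMIs of that sum, and without the cells outside the surface epithelium the value was 0.22 (adjusted p = 0.99). *Iigp1*, an interferon-induced GTPase gene, gave -6.30 (adjusted p = 2.91e-09), with 0.0633, 1.29 and 0.0130 in cluster 2, and 0.0146, 0.0104 and 0.00489 once those cells were left out.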

How the results depend on the processing

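No paired analysis was possible because the groups share fewer than 2 replicate numbers. The *Angpt1*ΔNC share was 1.39-fold the control mean among clusters 2 to 5, and 1.65-fold to 2.52-fold with either control left out. Of 25 leading genes, 9 remained with 1 added and 21 to 24 with a library left out. The 95th percentile put 96.4% of cells above the G2 and M cut and 44.8% above the S cut, and no thinning put 97.0% above the former. Thinned, cluster 2 held 51.9% of cells positive for *Top2a* and *Birc5*. Genotype calls (110 higher, 72 lower) became 293 and 212 without the filter, 249 and 194 with 41 cells per library, 45 and 24 of 2152 genes with DESeq2, 205 and 143 with cells nearest to clusters 3 to 5, and 297 and 182 with those nearest to cluster 4. The last 2 settings, and leaving out a control for the share, were chosen after seeing the data. With either control left out, 177 to 182 of the 182 calls and 81 to 85 of the 89 interaction calls kept their direction. Interaction calls (45 higher, 44 lower) became 14 and 25 against cluster 5, 27 and 6 with cells nearest to cluster 4, and 29 lower with those nearest to clusters 3 to 5. *Dct* reversed to 0.22 and 0.68 with cells nearest to clusters 3 to 5 and to cluster 4. The 20 named genotype genes kept their direction in every setting that tested them. They were chosen as calls with *Angpt1*ΔNC outside the control range, so leaving out a control could hardly reverse them, and this is no added support. Why the calls multiply in settings with fewer cells was not tested. Genotype and pool cannot be told apart, and the part of sex was not tested for any gene.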

Other observations

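Signalling and stress lists gave at most 1 call each in cluster 2, beside 1.32% higher and 0.862% lower over all genes tested. Of 8 EGF family genes tested, 1 was higher in *Angpt1*ΔNC, the ligand gene *Ereg* (0.467, 0.461 and 1.34, log2 difference 1.93, adjusted p = 0.000934), and the ligand gene *Hbegf* averaged 4.85, 5.62 and 2.67 (adjusted p = 0.15). Of 8 Notch pathway genes 1 was higher, the target gene *Hes1* (4.66, 5.56 and 9.40, log2 difference 1.10, adjusted p = 0.00438). Of 9 Wnt genes tested 0 passed with edgeR, 2 were under an unadjusted p of 0.05, and DESeq2 called 0 of 3 (*Wnt10a* averaged 0.929, 1.01 and 0.376, adjusted p = 0.0506). Of 15 immediate early genes 1 was lower, *Atf3* (1.93, 1.62 and 0.792, adjusted p = 0.0456), and 12 of 15 lay below both controls, beside 51.0% of all genes tested. Of 10 heat shock genes 1 was lower, the constitutive chaperone gene *Hspa8* (14.0, 11.4 and 4.56, log2 difference -1.55, adjusted p = 0.00119). *Myc* averaged 1.11, 0.953 and 0.391 (-1.17, adjusted p = 0.0489).

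Of the lists of other cell types, those of melanocytes and endothelium were highest in control 2. The melanocyte list summed to 0.329, 6.91 and 0.439 and the endothelium list to 0.923, 3.42 and 0.0458 per 10000 UMIs in cluster 2, while in cells nearest to cluster 4 their mean sums over the 3 libraries were 0.388 and 0.0497. The red cell list was highest in control 1, at 6.19, 0.219 and 0.171, also among cells nearest to cluster 4, at 7.67, 0.213 and 0.164.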
